A study of Tursiops truncatus with 76 samples.

Results

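Whole blood of wild bottlenose dolphins (Tursiops truncatus) from Sarasota Bay (SAR), Florida, was compared between May 2016 and May 2014. The members are all 16 SAR samples among the 76 samples of the series, 8 from May 2016 and 8 from May 2014, assigned by the stated place and sampling date. Each year held 4 females and 4 males, and no animal was sampled in both years, so the years differ in their animals as well as in time. The 2016 animals were sampled on days 6 to 11 of the month and the 2014 animals on days 5 to 9. In 2014 the males were sampled on days 5 and 6 and the females on days 7 to 9, so sex and day cannot be told apart in that year. SAR served the study as the site away from the oil spill that reached Barataria Bay (BAR), Louisiana. The study records 1 of the 2014 females as pregnant, and gives the status of 1 other female of 2014 and 1 of 2016 as undetermined. Blood was drawn into an RNA stabilizing tube, so no cell type was sorted out.

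Whole blood RNA is a mixture. Reticulocytes, the youngest circulating red cells, carry the RNA for heme enzymes, membrane skeleton proteins and a large stock of ribosomal protein mRNA. Neutrophils, eosinophils, monocytes, lymphocytes and platelets add their own transcripts. In a bulk sample, fewer cells of a type and less RNA per cell cannot be told apart. The comparison between years asks how much the blood of animals without the oil exposure varied from one assessment to the next.

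Values are FPKM, the fragments of a locus scaled to transcript length and to the fragments mapped in the library. They behave as shares, and a library with much of its RNA in few transcripts has lower values elsewhere. Each comparison was therefore made as deposited and again after each library was divided by a median-ratio factor, the median over loci of its ratio to the geometric mean of the 16 libraries. Differences are in log2(FPKM + 1), 2016 minus 2014, which understates the change of loci near 1 FPKM. A locus was called in limma where its p, adjusted by Benjamini-Hochberg over the 11059 expressed loci, did not exceed 0.05. Symbols could be read for 3139 of these, those that the study listed from these same libraries, so which genes carry a name was not independent of the data.

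The 2016 libraries were spread over more loci. The median-ratio factor was 0.952 to 1.53 with a median of 1.13 in 2016, against 0.725 to 1.03 with a median of 0.87 in 2014. In 7 of the 8 libraries of 2016 it was above every library of 2014 (exact permutation test, two-sided, p = 0.000777, adjusted p = 0.00155 over 4 measures). Loci with any FPKM numbered 14846 to 16067 in 2016, against 13796 to 15278 in 2014 (exact permutation test, adjusted p = 0.00207). The 1000 most abundant loci held 77.1% to 87.4% of the summed FPKM in 2016 and 82.3% to 89.8% in 2014, a mean difference of -4.28 percentage points (exact permutation test, adjusted p = 0.011). For the 100 most abundant loci the difference of -5.83 points did not pass (exact permutation test, p = 0.0687). The first principal component of the deposited values held 28.7% of the variance and separated the years in the same way, with 7 of 8 libraries of 2016 beyond all of 2014 (exact permutation test, adjusted p = 0.00124). Relative sequencing depth, estimated from the smallest steps of the low values, was 0.702 to 1.138 in 2016 and 0.526 to 1.058 in 2014, with 7 of 8 libraries of 2016 above the median of 2014. Depth was thus higher in most libraries of 2016, and its part in the loci detected was not tested. The labels give no extraction or sequencing batch, so a batch that followed the year cannot be told apart from it.

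**Figure D1:**
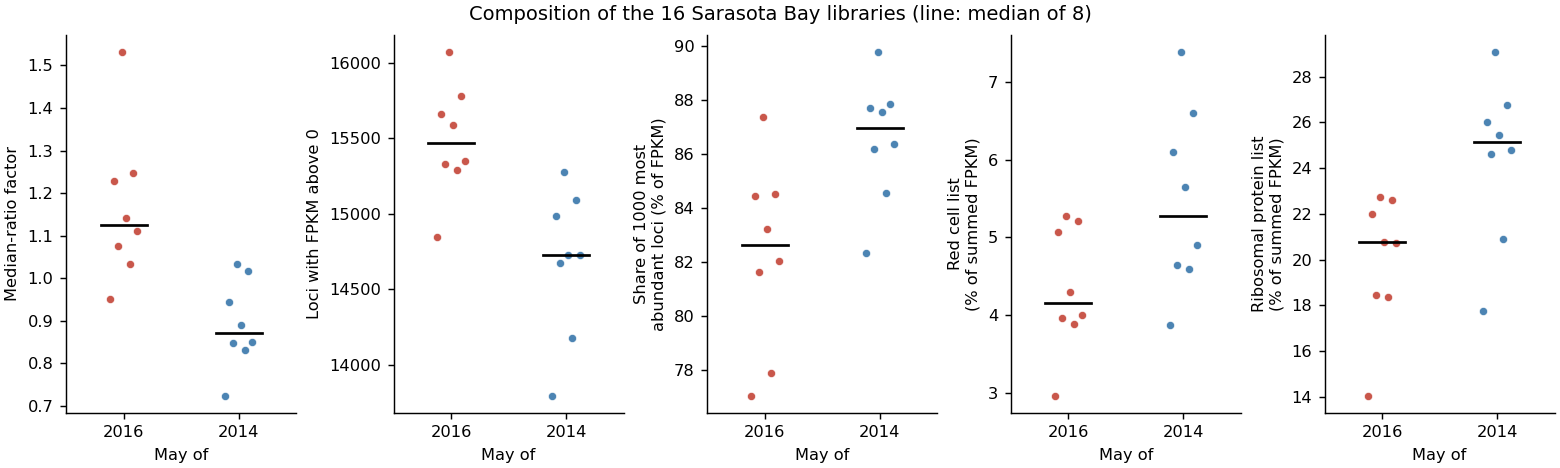
Composition of the 16 Sarasota Bay libraries, with May 2016 left of May 2014: median-ratio factor, number of loci with an FPKM above 0, and the shares of summed FPKM (in percent) held by the 1000 most abundant loci, the red cell list and the ribosomal protein list. Each point is 1 animal and each line a median of 8; the factor spans 0.952 to 1.53 in 2016 and 0.725 to 1.03 in 2014.

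Most loci were higher in 2016 as deposited, and the direction depended on the scaling. As deposited, 1774 loci rose (16.0% of those tested) and 128 fell (1.16%), and the median locus differed by 0.32. After median-ratio scaling the median difference was 0.00, and 113 loci rose (1.02%) while 262 fell (2.37%). Quantile normalization, which gives every library the same distribution, left 65 higher (0.588%) and 56 lower (0.506%). Called under both of the first settings were 113 higher and 121 lower loci, and none was called in opposite directions. All 3 settings called 39 higher and 44 lower loci.

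These counts moved when libraries were left out, the scaled count with more of them than the deposited count. Without the library of highest factor (2016 replicate 3) and that of lowest factor (2014 replicate 2), an alternative chosen after seeing the data, 308 loci were called as deposited and 14 after scaling. Left out singly, 3 libraries moved the deposited count of 1902 by more than 1.5 times, to 1015 without 2016 replicate 3, 1249 without 2016 replicate 8 and 1176 without 2014 replicate 2. The scaled count of 375 dropped to 70 without 2014 replicate 2, and to 75, 94 and 95 without 2016 replicates 5, 8 and 3. It dropped to 162, 174 and 232 without 2016 replicates 2, 7 and 6, and to 193, 194 and 201 without 2014 replicates 6, 5 and 4. It was 635 without 2014 replicate 3.

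The size of the difference followed the level of the locus. After scaling, the median difference was 0.12 for the 5699 loci with a mean of 1 to 10 FPKM and -0.07 for the 4445 loci of 10 to 100 FPKM. It was -0.36 for the 784 loci of 100 to 1000 FPKM and -0.69 for the 131 loci above that. No locus above 100 FPKM was called higher after scaling, while 88 and 16 of these last classes were called lower. With quantile normalization the medians of the same classes lay between -0.02 and 0.04. Loci called higher in both settings had a median level of 5.8 FPKM and a median span in the genome of 37966 bases, against 54.9 FPKM and 3284 bases for those called lower and 9.48 FPKM and 17410 bases over all loci. Loci called higher in both settings were thus long and of low level, and those called lower short and abundant. The calls with quantile normalization did not follow level in this way. That setting called 31 loci of 1 to 10 FPKM lower and 14 higher, and 25 loci of 10 to 100 FPKM lower and 41 higher. At 100 to 1000 FPKM it called 10 higher and none lower, and none above that.

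**Figure D2:**
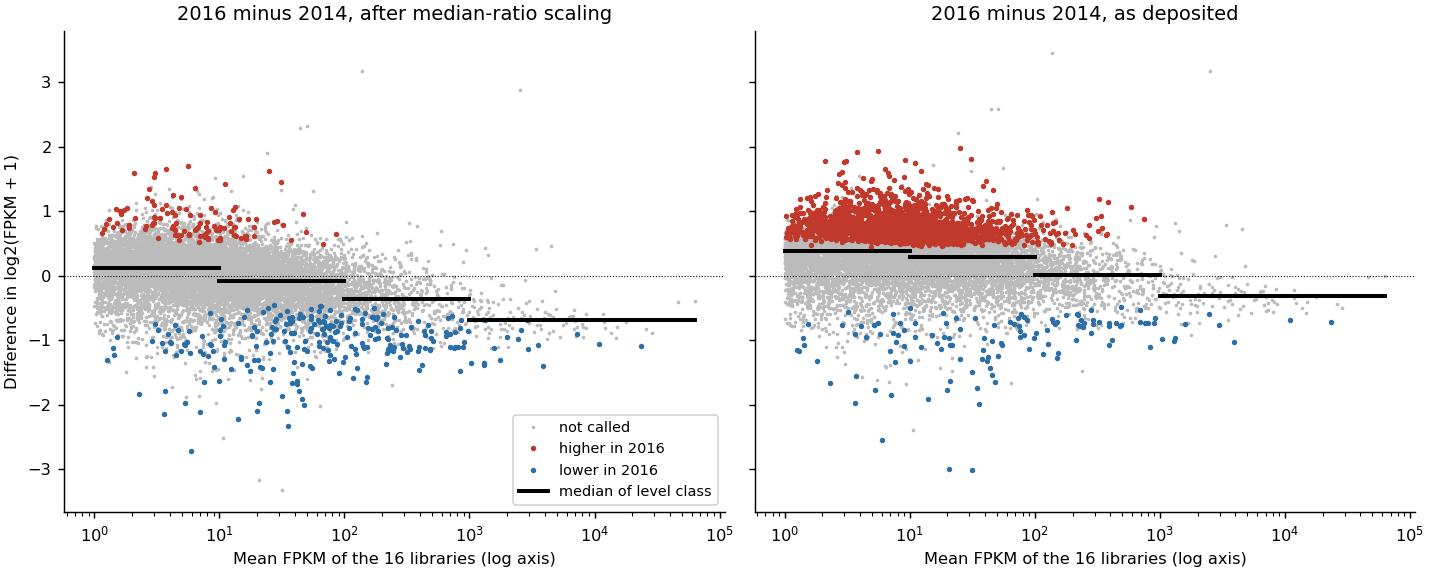
Difference between May 2016 and May 2014 in log2(FPKM + 1) for 11059 loci against their mean FPKM (log axis), after median-ratio scaling (left) and as deposited (right). Red points were called higher and blue points lower in 2016, grey points were not called, and black lines are medians of each level class, from 0.12 at 1 to 10 FPKM down to -0.69 above 1000 FPKM after scaling.

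The 12 named genes with the largest rise in 2016 had scaled differences of 0.77 to 1.63. OGT, which attaches N-acetylglucosamine to nuclear and cytosolic proteins, lies on scaffold NW_017844198.1 (23723448 to 23733645, Tur_tru v1). OGT was at 15.5 to 57.6 FPKM with a median of 40.9 in 2016, against 3.19 to 19.1 with a median of 9.91 in 2014. Its levels overlapped through a single library of 2016, and the scaled difference was 1.63 (standard error 0.284, limma adjusted p = 0.0142). AGO4, an Argonaute protein that carries small RNAs, was at 5.26 to 13.0 FPKM with a median of 7.31 in 2016 and at 1.19 to 4.14 with a median of 1.74 in 2014. The years did not overlap for AGO4, and the scaled difference was 1.22 (standard error 0.188, limma adjusted p = 0.00748). Its locus is on NW_017843440.1 (14977825 to 15014533). AGO2, another Argonaute, was also called in both settings, with a scaled difference of 0.58 (limma adjusted p = 0.0372), and is named after its value was seen.

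EZH1, a histone methyltransferase of the Polycomb group, had 3.27 to 11.0 FPKM with a median of 5.29 in 2016 and 0.726 to 2.59 with a median of 1.64 in 2014. IPO7, a receptor for nuclear import, had 12.7 to 24.6 FPKM with a median of 16.7 in 2016, against 2.86 to 9.71 with a median of 7.19 in 2014. The years did not overlap for either gene, and the scaled differences were 1.10 (limma adjusted p = 0.0196) for EZH1 and 0.92 (limma adjusted p = 0.0196) for IPO7. TRIM35, a ubiquitin ligase, had 5.78 to 13.9 FPKM with a median of 9.88 in 2016 and 0.633 to 7.03 with a median of 2.17 in 2014, a scaled difference of 1.37 (limma adjusted p = 0.0229). OGT, TRIM35, AGO4, EZH1 and IPO7 stayed called in both settings without each of the 16 libraries in turn.

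A pair of the genes belongs to transforming growth factor beta signalling. SMAD3, its intracellular messenger, had a median of 9.58 FPKM (5.46 to 15.2) in 2016 and 3.95 (2.39 to 5.81) in 2014, and its scaled difference of 0.83 passed (limma adjusted p = 0.0238). SKI, a corepressor that restrains SMAD proteins, had a median of 39.96 FPKM (21.7 to 54.7) in 2016 and 15.4 (8.84 to 34.0) in 2014, with a scaled difference of 0.85 (limma adjusted p = 0.0345). IKZF3, a lymphoid transcription factor, had a median of 13.8 FPKM (4.39 to 18.5) in 2016 against 3.48 (2.22 to 7.08) in 2014, and a scaled difference of 1.05 (limma adjusted p = 0.0368). BIRC2, an inhibitor of apoptosis, had a median of 13.3 FPKM (8.93 to 16.6) in 2016 and 5.75 (2.79 to 7.19) in 2014. As deposited its years did not overlap, and after scaling 7 of 8 libraries of 2016 lay above all of 2014. Its scaled difference was 0.77 (limma adjusted p = 0.0307). LNPEP, an aminopeptidase, FAM126A, a partner of a phosphatidylinositol kinase, and CLCC1, a chloride channel of the endoplasmic reticulum, had scaled differences of 1.03, 0.95 and 0.95. After scaling, SMAD3 lost its call without 1 of the 16 libraries, BIRC2 without 3, FAM126A and CLCC1 without 5 each, SKI without 9, IKZF3 without 10 and LNPEP without 12, with adjusted p up to 0.0868. None of the 31 named loci called higher in both settings was a member of a gene list described here.

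The largest falls among named genes were in complement C1q. C1QA and C1QC encode chains of C1q, the molecule that opens the classical complement pathway and is made mainly by cells of the monocyte and macrophage line. Their loci are neighbours on NW_017843440.1 (24108005 to 24110914 and 24100893 to 24101835). C1QA was at 2.0 to 35.04 FPKM with a median of 11.0 in 2016 and at 20.3 to 186 with a median of 36.8 in 2014. C1QC was at 3.71 to 25.4 FPKM with a median of 11.3 in 2016, against 16.5 to 260 with a median of 27.8 in 2014. Of the 8 libraries of 2016, 6 lay below all of 2014 for C1QA and 7 for C1QC. The scaled differences were -2.34 for C1QA (standard error 0.464, limma adjusted p = 0.0196) and -2.10 for C1QC (standard error 0.442, limma adjusted p = 0.0253). The highest value of both genes was that of 2014 replicate 1. Without that library the scaled differences were -2.06 (limma adjusted p = 0.0294) and -1.70 (limma adjusted p = 0.0186). C1QC lost its call without 2016 replicate 5 (adjusted p = 0.0505), the library with its second lowest value.

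PLIN5, a perilipin that coats lipid droplets, lies on NW_017844100.1 (209965 to 214471). PLIN5 was at 7.67 to 46.8 FPKM with a median of 20.0 in 2016 and at 41.3 to 94.4 with a median of 59.6 in 2014. As deposited 6 of 8 libraries of 2016 were below all of 2014, and all 8 after scaling, with a scaled difference of -1.91 (standard error 0.269, limma adjusted p = 0.00574). RUNDC3A was at 2.09 to 16.8 FPKM with a median of 6.925 in 2016 against 9.77 to 29.5 with a median of 16.0 in 2014, a scaled difference of -1.45 (limma adjusted p = 0.0196). GSTM3, a glutathione transferase, was at 25.3 to 121 FPKM with a median of 57.134 in 2016 and at 76.3 to 168 with a median of 113 in 2014, a scaled difference of -1.52 (limma adjusted p = 0.0196). C1QA, PLIN5, RUNDC3A and GSTM3 stayed called in both settings without each library in turn. PLIN5, RUNDC3A and AGO4 were the only ones of the 24 named genes with the largest differences that also stayed called after scaling without both libraries of extreme factor.

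UBE2O, a ubiquitin conjugating enzyme that clears proteins from maturing red cells, had a median of 234 FPKM (150 to 350) in 2016 and 588 (165 to 830) in 2014, a scaled difference of -1.46 (limma adjusted p = 0.0318). KDSR, an enzyme of sphingolipid synthesis, had a median of 11.7 FPKM (7.22 to 20.2) in 2016 and 26.5 (7.5 to 57.14) in 2014, a scaled difference of -1.42 (limma adjusted p = 0.0335). Both overlapped widely between years, and after scaling UBE2O lost its call without 5 of the 16 libraries and KDSR without 6. ANKRD9 had a median of 66.7 FPKM (35.4 to 174) in 2016 and 140 (99.5 to 753) in 2014, where the top value, of replicate 2, stood far from the next at 216 FPKM. Its scaled difference of -1.57 passed (limma adjusted p = 0.0445) but failed without 12 of the 16 libraries. The other lower genes were subunits of the ribosome and of ATP synthase, described below with their groups. Of the 24 genes, 8 higher and 5 lower were also called after quantile normalization.

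**Figure D3:**
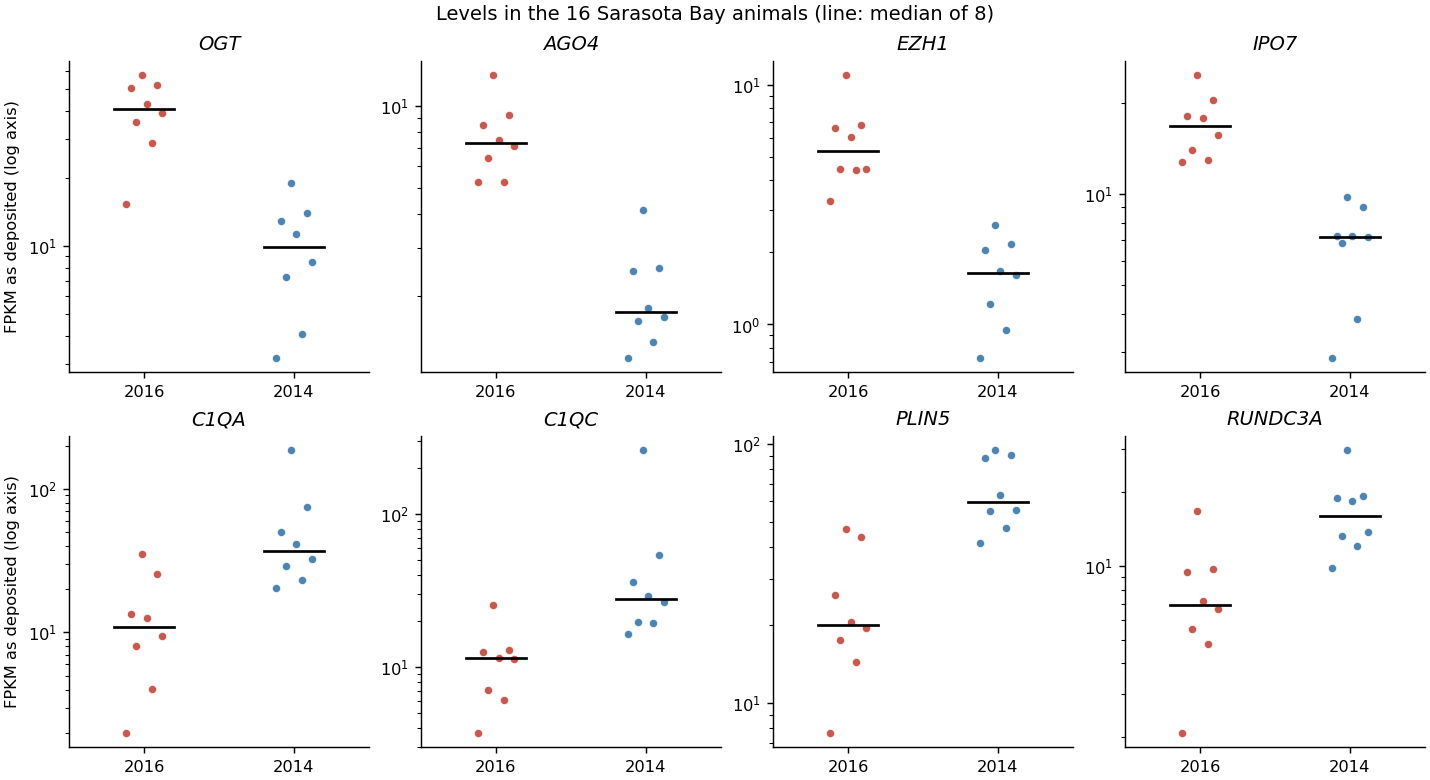
FPKM as deposited (log axes) of 4 genes called higher and 4 called lower in May 2016, with 2016 left of 2014. Each point is 1 animal and each line a median of 8; AGO4, EZH1 and IPO7 did not overlap between years, and C1QA had medians of 11.0 FPKM in 2016 and 36.8 FPKM in 2014.

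Of the heme synthesis and red cell list, 8 of 35 loci were lower in 2016 after scaling. Of 47 genes listed, 35 had a named locus, and all 35 differences were negative after scaling, with a median of -0.86 against 0.00 over all loci. None rose, and the 8 stand beside 2.37% of all loci called lower, or 11.2% of loci of 100 to 1000 FPKM and 12.2% of those above. As deposited 6 fell (against 1.16% of all loci), the median was -0.49 and 6 members had positive differences, and the count was 12 without 2014 replicate 4 and 3 without 2016 replicate 5. With quantile normalization 2 were called lower and the median was -0.52. The list held 2.97% to 5.28% of summed FPKM with a median of 4.15% in 2016, against 3.87% to 7.38% with a median of 5.27% in 2014.

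The members called lower span the red cell. ALAD, an enzyme of heme synthesis, had 126 ± 30.8 FPKM in 2016 and 194 ± 93.19 in 2014 (SD, n = 8 each) and a scaled difference of -0.92 (limma adjusted p = 0.0466). GYPC, a glycophorin of the red cell surface, was at 418 to 941 FPKM with a median of 586 in 2016, against 740 to 1591 with a median of 939 in 2014, and 7 of 8 libraries of 2016 lay below all of 2014 (scaled difference -1.11, limma adjusted p = 0.0196). SPTB, the beta chain of spectrin in the membrane skeleton, had a scaled difference of -1.11 and was not called as deposited (limma adjusted p = 0.0536).

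BNIP3L, which marks mitochondria for removal from reticulocytes, had 194 ± 50.4 FPKM in 2016 and 367 ± 118 in 2014 (SD, n = 8 each) and a scaled difference of -1.26 (limma adjusted p = 0.0196). HBQ1, a globin gene, had 366 ± 169 FPKM in 2016 and 609 ± 197 in 2014 (SD, n = 8 each), a scaled difference of -1.14 (limma adjusted p = 0.0466). CA2, a carbonic anhydrase, was at 3.5 to 10.7 FPKM with a median of 5.33 in 2016 and 5.71 to 16.5 with a median of 10.0 in 2014, a scaled difference of -1.06 (limma adjusted p = 0.0196). CA2 was also called after quantile normalization (limma adjusted p = 0.0254). BNIP3L, HBQ1, SPTB and ALAD are named after their values were seen. TFRC, the transferrin receptor, AHSP, the chaperone of alpha globin, and FECH, which inserts iron into heme, had scaled differences of -1.19, -0.96 and -0.91 and did not pass (limma adjusted p = 0.0943, 0.0572 and 0.0571). CPOX and LMO2 had the differences nearest to 0, at -0.05 and -0.07. Without 1 library the count of 8 became 5 (2014 replicate 2 or 6, or 2016 replicate 3, 5 or 8) or 14 (2016 replicate 1), and without both libraries of extreme factor none was called and the median was -0.71. Differences after scaling followed level and span over all loci, as given above, and the part of either in the red cell difference was not tested.

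**Figure D4:**
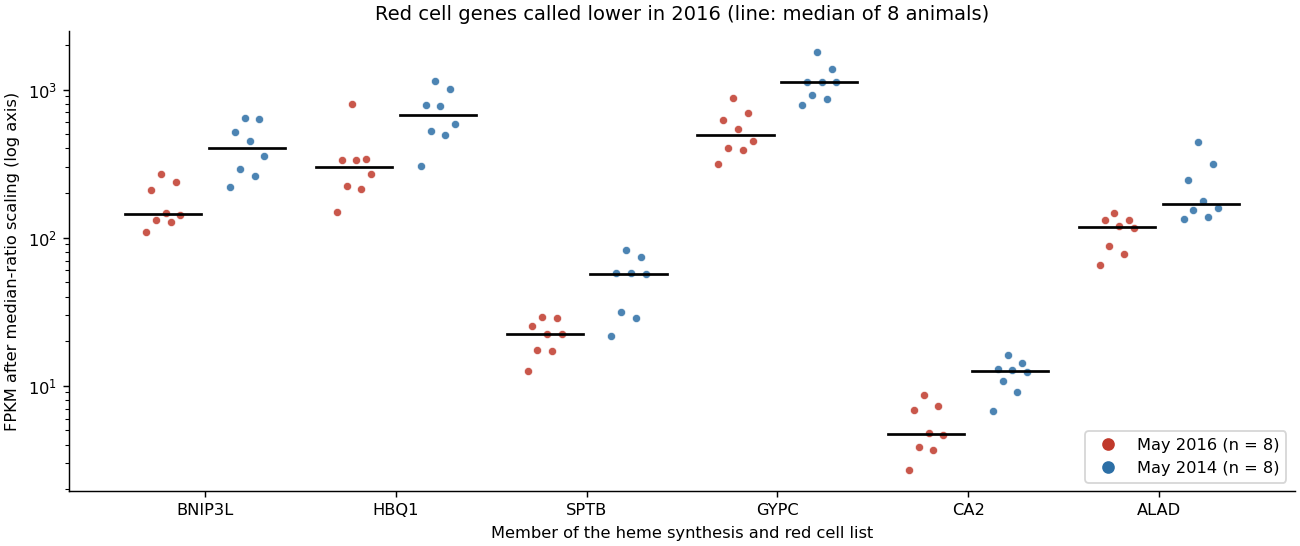
FPKM after median-ratio scaling (log axis) of 6 of the 8 members of the heme synthesis and red cell list called lower in May 2016, with 2016 left of 2014 for each gene. Each point is 1 animal and each line a median of 8; the scaled differences run from -1.26 for BNIP3L to -0.92 for ALAD.

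Of the loci for cytosolic ribosomal proteins, 15 of 87 were called lower in 2016 after scaling, and none with quantile normalization. The 87 loci of 74 genes had differences below 0 throughout after scaling, with a median of -0.80. None was called higher, and the 15 stand beside 2.37% of all loci called lower and the 11.2% and 12.2% of abundant loci given above. As deposited 9 were called lower with a median of -0.43. These 9 stand beside 1.16% of all loci, 4.97% of loci of 100 to 1000 FPKM and 6.87% of those above. The deposited count was 31 without 2014 replicate 3 and 3 without 2014 replicate 2. It was 5 without 2014 replicate 4 or 6, and 4 without 2016 replicate 3 or 8. With quantile normalization 15 differences were positive and the median was -0.17. The list held 14.1% to 22.7% of summed FPKM with a median of 20.7% in 2016 and 17.8% to 29.1% with a median of 25.1% in 2014.

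RPL36A, a protein of the large ribosomal subunit, was at 23.9 to 145 FPKM with a median of 57.7 in 2016, against 78.8 to 325 with a median of 140 in 2014, and 6 of 8 libraries of 2016 lay below all of 2014 (scaled difference -1.58, limma adjusted p = 0.0307). The more abundant of the loci of RPL23, also of the large subunit, was at 196 to 716 FPKM with a median of 613 in 2016 and at 411 to 1927 with a median of 1130 in 2014 (scaled difference -1.48, limma adjusted p = 0.0326). RPL18 was at 15.5 to 52.6 FPKM with a median of 23.2 in 2016, against 28.7 to 99.2 with a median of 43.4 in 2014 (scaled difference -1.33, limma adjusted p = 0.0332). A locus of RPLP2, of the ribosomal stalk, had 24.6 ± 18.2 FPKM in 2016 and 52.9 ± 22.9 in 2014 (SD, n = 8 each), and its other locus 525 ± 139 and 764 ± 172. RPL23, RPLP2 and other members have more than 1 locus, and near-identical copies can share reads, so values of single loci are uncertain. The count of 15 became 0 without 2014 replicate 2 or 2016 replicate 8 and 51 without 2014 replicate 3, and stayed within 1.5 times only without 2014 replicate 8, at 11. The median stayed between -0.95 and -0.69. Without both libraries of extreme factor no member was called and the median was -0.62.

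Of 20 nuclear loci for respiratory Complexes II to V, 6 were called lower after scaling (beside 2.37% of all loci and 11.2% of those of 100 to 1000 FPKM), 3 as deposited (beside 1.16% of all loci) and none after quantile normalization. The median scaled difference was -0.56, and 7 of the 20 were positive as deposited. COX7B, a subunit of cytochrome oxidase, was at 97 to 358 FPKM with a median of 198 in 2016 and at 272 to 452 with a median of 362 in 2014 (scaled difference -1.13, limma adjusted p = 0.0196). ATP5J2, a subunit of ATP synthase, was at 22.1 to 163 FPKM with a median of 103 in 2016, against 108 to 319 with a median of 188 in 2014 (scaled difference -1.65, limma adjusted p = 0.0326). ATP5H, of the same enzyme, was at 156 to 399 FPKM with a median of 224 in 2016 and at 262 to 603 with a median of 340 in 2014 (scaled difference -0.92, limma adjusted p = 0.0307), and was not called as deposited. The count of 6 became 1 without 2014 replicate 2 or 2016 replicate 2, 5 or 8, 2 without 2014 replicate 4 or 2016 replicate 3, and 3 without 2014 replicate 6, and the deposited count of 3 became 1 without 2014 replicate 2 or 4 or 2016 replicate 5 or 8. ATP5J2 lost its scaled call without 6 of the 16 libraries and COX7B its deposited call without 9. All 12 named loci of Complex I had negative scaled differences, with a median of -0.58, and none was called, while 4 were without 2014 replicate 3 and 2 without 2016 replicate 1. Of 15 proteasome loci, PSMB1 was called lower after scaling (-0.74, limma adjusted p = 0.0335, beside 2.37% of all loci). It was not called as deposited (limma adjusted p = 0.144). The scaled count of the proteasome list was 3 without 2014 replicate 3, 2 without 2014 replicate 8 and 4 without 2016 replicate 1. That count was 0 without 2014 replicates 2 or 4 or 2016 replicates 2, 3, 5, 7 or 8.

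Apart from C1QA and C1QC, no marker of monocytes and macrophages was called lower. These 2 stand beside 2.37% of all loci called lower after scaling and 1.16% as deposited. Of 30 listed genes, 12 had named loci, 13 loci in all, and the median scaled difference was -0.69. SLC11A1, a metal transporter of macrophages, was at 53.1 to 115 FPKM with a median of 90.6 in 2016, against 68.9 to 260 with a median of 104 in 2014, and did not pass (scaled difference -0.78, limma adjusted p = 0.0571). CCR2, a chemokine receptor of monocytes, went the other way, with 24.0 ± 9.63 FPKM in 2016 and 11.8 ± 6.126 in 2014 (SD, n = 8 each), called higher as deposited (limma adjusted p = 0.0253) but not after scaling (limma adjusted p = 0.122). The call of CCR2 stands beside 16.0% of all loci called higher as deposited. CCR2 is named after its value was seen, and no marker of the list was called higher as deposited without 2014 replicate 2 or 2016 replicate 3. The 2 C1q genes were the members called after quantile normalization too. The scaled count of 2 became 1 without 2016 replicate 5, 3 without 2016 replicate 1 or 4, and 5 without 2014 replicate 8.

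Interferon-stimulated genes were raised in a single animal of 2014. These genes, which cells switch on against viruses, were tested at 29 loci. None was called between the years (1 lower after scaling without 2014 replicate 3, 1 higher as deposited without 2016 replicate 1), and the median scaled difference was -0.30. The mean log2(FPKM + 1) of the list after scaling was 3.57 to 4.35 in 15 libraries and 5.72 in 2014 replicate 1, a female. In that library 23 of the 29 members (79.3%) had their highest value of all 16 libraries, against 8.75% of all loci, a description made after the library was seen. GBP6, an interferon-induced GTPase, was at 148 FPKM there and at 1.71 to 16.0 FPKM with a median of 7.66 in the 15 others. UBE2L6, an enzyme of ubiquitin-like modification, was at 321 FPKM against 29.1 to 61.6 FPKM. SIGLEC1, a receptor of macrophages, was at 16.0 FPKM against 1.3 to 5.82 FPKM. IFI6, CMPK2, PARP14, PARP12, EIF2AK2 and OASL were the members not at their highest there. Without this library the median scaled difference of the list was -0.03, with no call after scaling and 2 loci called higher as deposited. The same library had the highest mean of the monocyte and macrophage list, 7.32 against at most 6.40 in the 15 others, and the highest values of C1QA and C1QC, which stayed called without it as given above.

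Of the lymphocyte lists, 5 loci were called higher as deposited and none after scaling. As deposited 78.4% of all loci had positive differences, with a median of 0.32. All 9 named B cell loci of 24 listed genes had positive differences as deposited, with a median of 0.64, and 2 were called. RALGPS2 was at 17.6 to 44.0 FPKM with a median of 26.7 in 2016 and at 6.08 to 23.2 with a median of 12.3 in 2014 (limma adjusted p = 0.0155 as deposited and 0.102 after scaling). MS4A1, which encodes CD20, was at 28.5 to 94.4 FPKM with a median of 52.1 in 2016, against 11.1 to 88.1 with a median of 23.5 in 2014 (limma adjusted p = 0.0414 as deposited and 0.249 after scaling). These 2 calls stand beside 16.0% of all loci called higher as deposited, as do those below. RALGPS2 stayed called as deposited without each library in turn, while MS4A1 lost its call without 10 of the 16. Of 7 named T cell loci, TRAT1, an adaptor of the T cell receptor, and BCL11B, a T cell transcription factor, were called higher as deposited (differences 0.68 and 0.64, limma adjusted p = 0.034 and 0.0421) and not after scaling (0.32 and 0.31, adjusted p = 0.375 and 0.323). Their deposited calls failed without 8 (TRAT1) and 9 (BCL11B) of the 16 libraries. Neither was called without 2014 replicate 2, 5 or 6 or 2016 replicate 3, 5 or 7. The median scaled differences were 0.34 for B cells and 0.20 for T cells. Of 7 loci of cytotoxic and natural killer cells, CD244, a receptor of these cells, was called higher as deposited (0.81, limma adjusted p = 0.0318) and not after scaling (0.46, adjusted p = 0.277), and its deposited call failed without 2014 replicate 6, 7 or 8 or 2016 replicate 3, 5 or 8.

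No granulocyte or platelet marker passed after scaling. Without 1 library the scaled fit called 2 platelet loci lower (2014 replicate 3), or 1 (2014 replicate 8 or 2016 replicate 1), and 1 neutrophil locus lower (2014 replicate 8). MS4A2, a chain of the high-affinity IgE receptor of basophils and mast cells, was at 111 to 426 FPKM with a median of 235 in 2016 and at 53.1 to 180 with a median of 107 in 2014, called higher as deposited (1.05, limma adjusted p = 0.0194) and not after scaling (0.67, adjusted p = 0.162). FCER1A, the alpha chain of the same receptor, was at 431 to 950 FPKM with a median of 753 in 2016 and at 441 to 1242 with a median of 650 in 2014, and was not called (adjusted p = 0.904 as deposited). None of the 10 neutrophil loci was called, and LTF, lactoferrin of neutrophil granules, had a scaled difference of -0.77 (limma adjusted p = 0.183). Of 15 platelet loci, ITGA2B, the platelet fibrinogen receptor, had a scaled difference of -1.14 (limma adjusted p = 0.0726), and THBS1, thrombospondin, was called higher as deposited (1.184, limma adjusted p = 0.0366) and not after scaling (0.85, adjusted p = 0.142). THBS1 is named after its value was seen, and no platelet locus was called as deposited without any one of 2014 replicates 1, 2, 4, 5, 6 and 7 or 2016 replicates 4, 5 and 7. Loci for immediate-early and stress-induced genes (9), the interleukin 1 and 18 family (9) and the circadian clock (5) had no call in either setting with all libraries, with median scaled differences of -0.33, -0.22 and 0.00. Without 1 library, 1 interleukin family locus was called lower after scaling (2014 replicate 8 or 2016 replicate 1) or 1 higher as deposited (2014 replicate 3, 6 or 8 or 2016 replicate 1 or 5). As deposited, 2 clock loci were called higher without 2016 replicate 1 and 1 without 2014 replicate 3 or 2016 replicate 5 or 6. IL1B was at 183 to 649 FPKM with a median of 298 in 2016 and at 177 to 688 with a median of 315 in 2014, and CRY2, a clock repressor, at 4.98 to 26.2 FPKM in 2016 and at 4.25 to 9.86 FPKM in 2014.

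**Figure D5:**
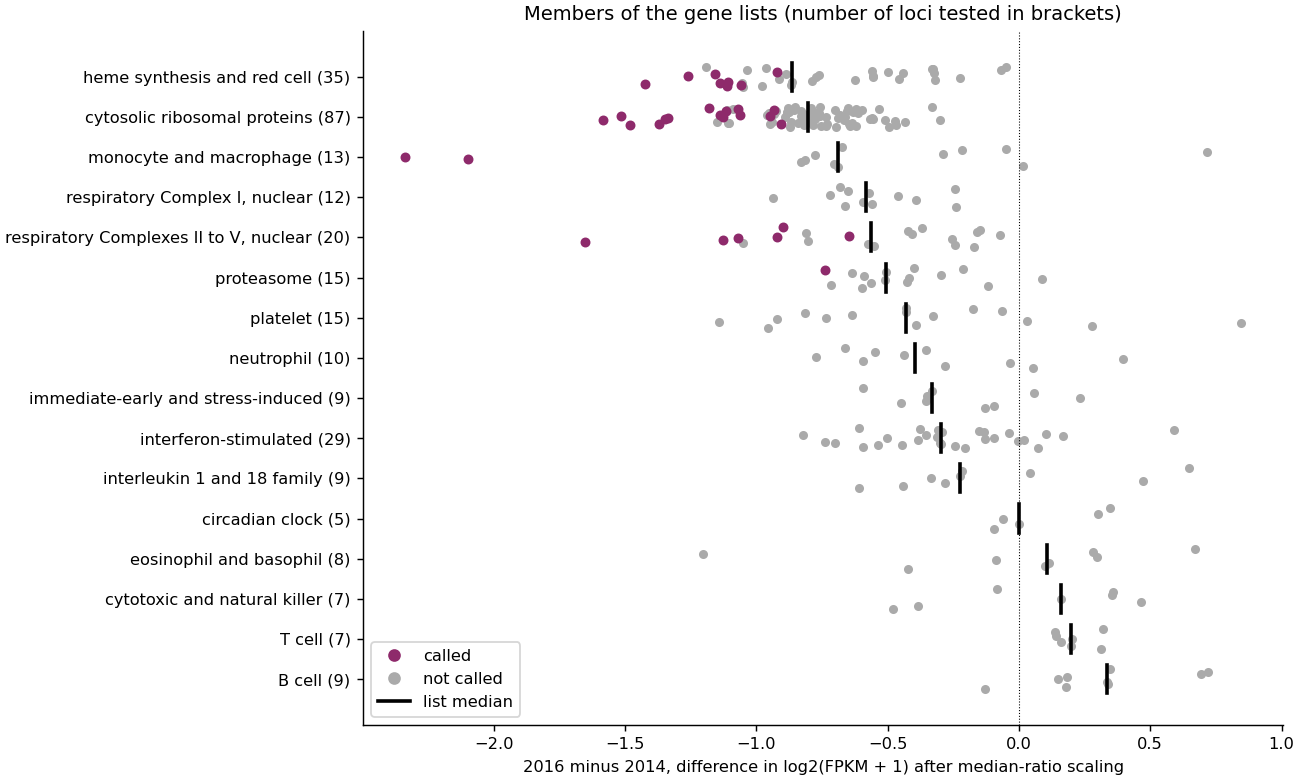
Differences between May 2016 and May 2014 in log2(FPKM + 1) after median-ratio scaling for the members of 16 gene lists, with the number of loci tested in brackets. Purple points were called and grey points were not, and black lines are list medians, from -0.86 for the red cell list to 0.34 for B cells.

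The 10 most abundant named loci included genes of the red cell and of the ribosome, and loci without a name were not ranked. ALAS2, which starts heme synthesis in red cells, was at 13648 to 30472 FPKM with a median of 22192 in 2016, against 19774 to 51455 with a median of 33643 in 2014, and was not called (scaled difference -0.89, limma adjusted p = 0.0895). GPX1, a glutathione peroxidase, was the only one of the 10 most abundant named loci that was called. GPX1 was at 10849 to 25061 FPKM with a median of 16650 in 2016 and at 19998 to 53863 with a median of 28267 in 2014, and 6 of 8 libraries of 2016 lay below all of 2014 (scaled difference -1.10, limma adjusted p = 0.0466). That call failed after scaling without 13 of the 16 libraries and with quantile normalization (adjusted p = 0.427). TPT1, ATPIF1, BLVRB, RPS2, RPL12, FTL and FAU had scaled differences of -0.96 to -0.71, and none passed.

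The 12 most variable named genes ranged widely among animals of the same year. PRG3, a proteoglycan of eosinophil granules, was at 0.863 to 37.6 FPKM with a median of 1.32 in 2016 and at 0 to 345 with a median of 5.03 in 2014. GCNT3, a glycosyltransferase of mucin-type chains, was at 0.194 to 88.3 FPKM with a median of 17.6 in 2016 and at 0.0439 to 23.8 with a median of 3.47 in 2014. LAG3, an inhibitory receptor of activated T and natural killer cells, was at 0.929 to 113 FPKM with a median of 39.0 in 2016, against 46.0 to 146 with a median of 71.9 in 2014, and its scaled difference of -2.02 did not pass (limma adjusted p = 0.0971). CCL2, a chemokine that attracts monocytes, was at 8.81 to 116 FPKM with a median of 36.6 in 2016 and at 5.6 to 203 with a median of 40.4 in 2014. VNN1, a pantetheinase, FAM26F, TEX12, RPS19 and RPL10L varied by SDs of 1.28 to 1.36 on the scaled log2 scale within a year, and PRG3 by 2.37. TRAPPC4, BIN3 and SURF1 were listed at 0 in some libraries and reached 48.1, 37.7 and 77.8 FPKM in others. The loci of TRAPPC4 and BIN3 overlap those of RPS25 and CCAR2, and that of SURF1 overlaps an unnamed locus, so their values may depend on how fragments were divided. None of the 12 was called between years.

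Females and males changed in the same direction for each of the 24 genes with the largest differences, with larger estimates in females for 22 of them. The 24 were picked for the pooled difference of these same animals, so the shared direction was largely set by the pick. Tested directly, the interaction of sex and year called no locus in limma, and 814 loci as deposited and 824 after scaling had an unadjusted p under 0.05. Without the filter on low values 1 and 2 loci were called. Fitted alone, the 4 females of each year gave 653 calls as deposited and 57 after scaling, and the 4 males 1 call in each setting. OGT had scaled differences of 2.15 in females and 1.11 in males (interaction p = 0.0541 in limma, adjusted p = 0.67). Among named loci, the smallest p values of the interaction were those of B3GNT5, an enzyme of glycosphingolipid synthesis, with 1.95 in females and -0.11 in males, and of GMEB1, a DNA-binding protein, with 1.23 and -0.13. LMTK2, a kinase, followed with 1.49 in females and -0.51 in males. Their limma adjusted p was 0.41 each. The median scaled difference of ribosomal protein genes was -1.30 in females and -0.33 in males, and of red cell genes -0.68 and -0.74. These list medians were not tested between the sexes.

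The change at SAR differed from that at BAR between June 2017 and June 2014, the nearest pair of years sampled in one month there. Of 11485 loci expressed over all 76 libraries, 558 (4.86%) differed in their change after scaling and 2834 (24.7%) as deposited. ECH1, an enzyme of fatty acid oxidation, was at 43.2 to 87.8 FPKM with a median of 63.0 in SAR 2016 and at 63.4 to 154 with a median of 111 in SAR 2014, and had medians of 92.8 in BAR 2017 and 83.0 in BAR 2014. The scaled change at SAR minus that at BAR was -1.36 (standard error 0.207, limma adjusted p = 7.34e-05). HDLBP, an RNA-binding protein, had medians of 43.11 and 61.6 FPKM in SAR 2016 and 2014 and 48.1 and 40.02 FPKM in BAR 2017 and 2014, a contrast of -1.33 (limma adjusted p = 0.000226). Among the 76 libraries 71 animals are named, 5 BAR animals having 2 libraries each, and the fit treated these as independent. The years, months and animals of the sites differ, so site cannot be told apart from the interval sampled. Each of these BAR groups held 12 libraries, of both sexes. The study lists more BAR females as pregnant in June 2014 than in June 2017, where the status of several is undetermined. It lists more BAR animals born after the spill in June 2017. The BAR change thus cannot be told apart from pregnancy or birth cohort.

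Of the 24 genes with the largest differences at SAR, 14 were also called in the scaled contrast with BAR, 6 higher and 8 lower. The 24 were picked for the SAR difference that this contrast contains, so the 14 are no separate support. None of the 24 was called between BAR 2017 and BAR 2014 alone, where 99 of all 11485 loci were called after scaling. OGT had a median of 40.9 FPKM in SAR 2016 and 9.91 FPKM in SAR 2014, and medians of 29.8 to 44.3 FPKM over the 5 BAR groups. AGO4 had 7.31 FPKM in SAR 2016, 1.74 FPKM in SAR 2014 and 5.04 to 9.51 FPKM over the BAR groups, so for both genes SAR 2014 was the low group. PLIN5 had 20.0 FPKM in SAR 2016, 59.6 FPKM in SAR 2014 and 45.4 to 59.3 FPKM over the BAR groups, so SAR 2016 was the low group. C1QA had 11.0 FPKM in SAR 2016, 36.8 FPKM in SAR 2014 and 18.5 to 40.8 FPKM over the BAR groups. Not all lower genes of the 24 had this order. SAR 2014 was above all BAR medians and SAR 2016 among them for GSTM3, UBE2O, KDSR, RPL23, RPL36A, RPLP2 and ATP5J2. UBE2O had 234 FPKM in SAR 2016, 588 FPKM in SAR 2014 and 157.7 to 293.36 FPKM over the BAR groups. RUNDC3A and ANKRD9 had SAR 2014 above and SAR 2016 below all BAR medians, and C1QC had both years among them. These levels are as deposited, and the order of groups was not tested. Of the 35 red cell loci, 15 were called with a lower change at SAR than at BAR after scaling, and of the 87 ribosomal loci 23. These stand beside 364 of all 11485 loci called lower, and 4.86% called in either direction. The median scaled change of the red cell list was -0.88 at SAR and 0.61 at BAR, and of the ribosomal list -0.82 and 0.08.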

How the data were processed

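Blood RNA of 16 SAR dolphins was analysed. Per the submitters' processing notes and the study's methods, the authors groomed reads with Trimmomatic 0.33, checked them with FastQC, aligned them with TopHat2 2.1.1 and Bowtie2 to Tur_tru v1 with some hemoglobin sequences masked (HBQ1 is not named among them), and computed the deposited FPKM values, 1 per locus, with Cufflinks 2.2.1. FPKM hold no read counts. A second deposited sheet repeats the same values in another column order and was not used. Relative depth was estimated here from 2653 loci detected in 10 to 40 of the 76 libraries, assuming that the smallest steps are single fragments, and 86.4% of these values lay within 5%.

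Of 24094 loci, 11059 averaged 1 FPKM or more and were detected in 8 or more of the 16 libraries. Their log2(FPKM + 1) values were fitted by year alone in limma 3.58.1 under R 4.3.3 (trended eBayes), as deposited and after median-ratio scaling, since Cuffdiff needs reads. The test was checked on simulated data drawn independently for each locus, so differences shared by the loci of a library were not part of that check. Library measures used exact permutation tests over 12870 splits (scipy 1.17.1, numpy 2.4.6, pandas 2.3.3, Python 3.11.15, figures with matplotlib 3.10.9). Loci are given by position, and symbols come, for 3144 loci, from the study's supplementary tables, which were made from these libraries. Coordinates are 1-based. Each SAR library is from a separate animal.

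The members, the 16 gene lists and the tests were chosen with earlier results of these data known. Named are the 12 largest scaled differences in each direction among named loci called in both settings, the 3 members of smallest p in each list, the 3 named loci of smallest p between sexes and between sites, and, with at least 10 FPKM, the 12 most variable and the 10 most abundant named loci. The alternatives were other pseudocounts, filters, scalings, covariates, array weights, the libraries of extreme factor left out (chosen after seeing the data), the fit of all 76 samples, each sex alone, and each library left out. Some genes that the rule names are not reported here.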

Additional observations from a re-analysis of the deposited data

Results flagged for a closer look

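Within a year, 11 of 100 groups of 8 libraries (4 library measures and the genes with the largest differences, the most variable and the most abundant) held a library far from the other 7 on the log2(FPKM + 1) scale. Chance flags about 1 in 20 groups of normal values that were not picked by their data. The genes here were picked for difference, spread or level in these same libraries, so that rate is no measure for them. In 2014, replicate 1 was low for BIRC2 at 1.922 (2.79 FPKM, next 4.79 FPKM) and high for C1QC at 8.03 (260 FPKM, next 53.7 FPKM). Replicate 2 of 2014 was high for ANKRD9 at 9.56 (753 FPKM, next 216 FPKM), for GPX1 at 15.72 (53863 FPKM, next 29180 FPKM) and for RPS2 at 15.06 (34153 FPKM, next 18264 FPKM). Replicate 4 of 2014 was low for KDSR at 3.09 (7.5 FPKM, next 24.0 FPKM). In 2016, replicate 5 was high for a locus of RPLP2 at 6.11 (67.9 FPKM, next 24.0 FPKM) and replicate 7 for FAM26F at 4.84 (27.5 FPKM, next 6.22 FPKM). SURF1 was listed at 0 in replicate 7 of 2016 and BIN3 in replicate 6 of 2016 and replicate 8 of 2014, while the next lowest values were 28.2, 14.2 and 12.4 FPKM.

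The change between years differed between SAR and BAR in the limma contrast for 2834 loci as deposited and 558 after scaling. Among the named loci of smallest p were ECH1 at -1.36 and HDLBP at -1.33 on the scaled log2 scale, SAR change minus BAR change.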

How the results depend on the processing

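Of the 1902 loci called as deposited in limma, the count was 2868 in the fit of all 76 samples, 653 in females alone, 1 in males alone, 121 with quantile normalization, 308 without the libraries of highest and lowest factor, and 1015 to 2490 without 1 library. Of the 375 called after scaling, it was 90 without a filter on low values, 778 with the day of the month as a covariate, 1644 in the fit of all 76 samples, 689 with array weights, 57 in females, 1 in males, 121 with quantile normalization, 14 without the 2 libraries and 70 to 635 without 1 library. The cause of these moves was not tested. Single-sex fits hold fewer samples, equal in number for females and males. The interaction of sex and year called 1 locus as deposited and 2 after scaling without the filter. The contrast between sites called 365 loci with quantile normalization in place of 2834 or 558, and 354 after scaling without the filter. The difference in share was -5.83 points for the 100 most abundant loci (exact permutation p = 0.0687). The 4 library measures kept their direction and their side of 0.05 without each library. Of the 24 genes with the largest differences, all kept their direction in each setting that tested them, and 13 stayed called with quantile normalization, 8 without the filter after scaling, 5 in females alone after scaling and 3 without the 2 libraries after scaling. Among values called on neither side, 45 changed sign with a setting. No paired analysis was possible because no animal was sampled in both years and the replicate numbers pair no samples. FPKM carry no counts, so loci near 1 FPKM rest on few fragments and their differences are less certain.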
